A study of Oryza sativa with 12 samples.

Results

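After desiccation, the rice line H49, which over-expresses *OsHOX24*, was compared with wild type (WT) on 6 of the 12 expression arrays of the series, 3 labelled H49_DS and 3 labelled WT_DS. They were chosen from the sample labels by genotype and stress. All plants were 3-week-old hydroponic seedlings of the cultivar Pusa Basmati 1. For desiccation stress (DS) the seedlings were dried between folds of tissue paper for 3 h, and the controls (H49_CT and WT_CT, 3 arrays each) stood in water for the same time. The H49 seedlings carry the open reading frame of *OsHOX24* behind a ubiquitin (UBQ) promoter and represent 1 transgenic line, so that effects of the transgene and of that line cannot be told apart. The labels name the gene and not the line, which is known from the paper, and write drought where the paper writes desiccation. The methods describe the arrays of a group as independent biological replicates.

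OsHOX24 belongs to the homeodomain-leucine zipper I (HD-ZIP I) transcription factors, a plant family in which many genes respond to water deficit. When plant tissue dries, abscisic acid (ABA) accumulates, its receptors bind clade A protein phosphatases 2C (PP2C), and SnRK2 kinases released from these phosphatases activate bZIP factors. Typical targets are genes of late embryogenesis abundant (LEA) proteins and dehydrins, which protect proteins and membranes, and the PP2C genes themselves, which restrain the pathway. The comparison described here asks whether drying seedlings with the transgene reach other transcript levels than drying WT seedlings.

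Values are log2 levels of 15140 genes, each read from 1 probe set, so that a difference of 1 is a 2-fold difference. A call needed both a 2-fold difference and an adjusted p from limma of 0.05 or less. One array stood apart before any comparison: WT_DS replicate 1 was the farthest of its group in 42.2% of all genes and had the lowest array weight of all 12 arrays in limma (0.43). The 75th percentile of its gene levels was 6.14, whereas that of the other DS arrays lay between 6.29 and 6.41. In a set of genes described further on, the arrays labelled replicate 1 also showed the reverse order of the genotypes, in part at intermediate levels. For that reason the main results that rest on replicate 1 are given with and without it. The 5 green-tissue markers were measured in every DS array (summed linear level 1429 to 2073 in H49_DS and 1289 to 2157 in WT_DS), with *OsPSAG* at 9.32 in H49_DS and 9.23 in WT_DS and *CAB1R* lowest at 5.07 in H49_DS and 5.04 in WT_DS. Of 7 seed storage genes the median level was 2.75 in H49_DS and 2.80 in WT_DS, but *GLB* stood at 7.0 in H49_DS and 6.59 in WT_DS and *GLUA-1* at 6.56 in H49_DS and 6.60 in WT_DS. In whole seedlings, fewer cells of a type and less RNA per cell cannot be told apart.

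*OsHOX24* (*HOX24* in the gene table, gene ID 4330155), the gene carried by the construct, did not separate the genotypes after DS. Its level was 10.17, 9.44 and 9.96 in H49_DS and 9.38, 10.29 and 10.06 in WT_DS. The groups overlapped, with the lowest and the highest of the 6 values both in WT_DS. The difference of H49_DS minus WT_DS was -0.06 with a standard error of 0.55 and a 95% interval from -1.23 to 1.12 (adjusted p = 0.995 from limma; two-sided exact permutation test p = 0.8, where 3 arrays against 3 cannot go below 0.1). The interval reaches past 2-fold in both directions. The sign turned with single arrays, with a value of 0.15 without H49_DS replicate 2, of -0.32 without WT_DS replicate 1 and of -0.48 without replicate 1 of both DS groups. In both genotypes these end levels lay far above the controls, by 6.07 in H49 and by 5.73 in WT. The controls did not show a higher level in the transgenic line either, with 4.56, 3.57 and 3.23 in H49_CT and 5.61, 4.11 and 2.83 in WT_CT, a difference of -0.39. In the paper, real-time PCR found raised *OsHOX24* in every selected line relative to WT, with H49 between the other lines. Where the array probes lie relative to the open reading frame is unknown here, and with it whether the transcript of the construct is read at all.

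No gene was called between H49_DS and WT_DS (0 of 15140, 0.0%), and the smallest adjusted p was 0.751 from limma. At an unadjusted p under 0.05 there were 733 genes (4.84%), 390 higher (2.58%) and 343 lower (2.27%) in H49_DS, where 757 would come by chance. The median size of the difference over all genes was 0.17, and the median standard error was 0.23. For 13047 genes (86.2%) the 95% interval of the difference lay within 2-fold either way. A 2-fold or larger difference of the means occurred in 51 genes (0.337%), 39 of them higher (0.258%) and 12 lower (0.0793%) in H49_DS, and 0 of these passed the test. Of genes simulated with a known difference at this spread and number of arrays, 19 of 50 passed the adjusted p at 2-fold and 46 of 50 at 3-fold, against 2 of 50 at 1.5-fold. Also passing were 8 unchanged genes. The simulation changed 50 genes at each of 1.5-, 2-, 3- and 4-fold together, with independent noise and no outlying array. Its shares therefore need not hold where fewer genes differ or where an array stands apart.

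**Figure D1:**
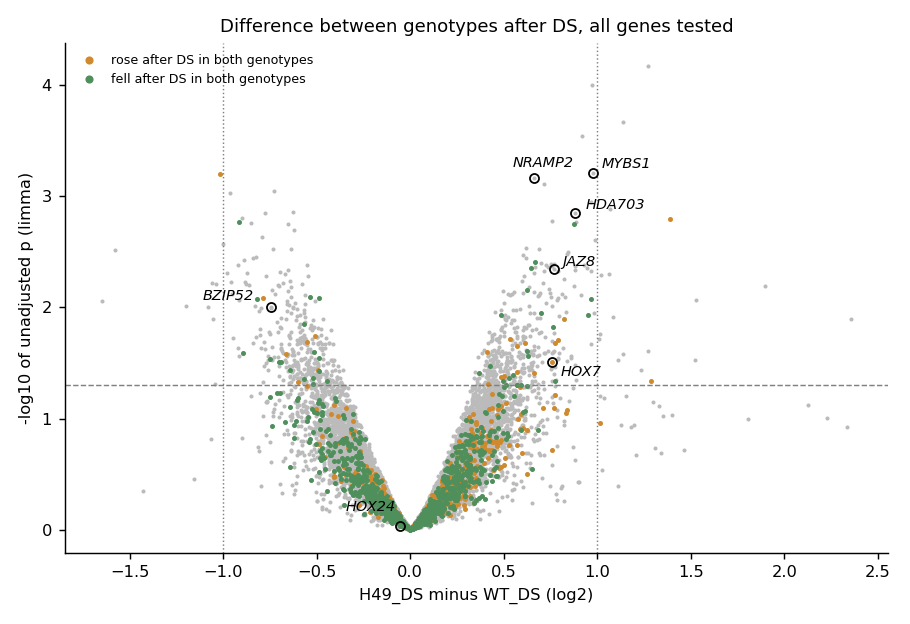
Each point is 1 of 15140 genes, with the difference H49_DS minus WT_DS (log2) on the x axis and -log10 of the unadjusted p (limma, fitted across all genes) on the y axis; orange points rose and green points fell after DS in both genotypes, the dashed line marks the unadjusted threshold and the dotted lines mark 2-fold. *HOX24* sits at -0.06 near the bottom, *MYBS1* at 0.97 and *NRAMP2* at 0.66 are the named genes with the smallest p, and 0 genes pass the adjusted test.

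The stress genes called in both genotypes ended at closely similar levels, a choice that itself favours genes with like levels. Genes called as risen after DS numbered 797 (5.26%) in H49 and 747 (4.93%) in WT, of which 616 rose in both. Genes called as fallen numbered 1408 (9.3%) in H49 and 1283 (8.47%) in WT, of which 955 fell in both. These lists were chosen with the same DS arrays, so their levels are a description without a test. The median end level of the 616 risen genes was 7.59 in H49_DS and 7.51 in WT_DS, and that of the 955 fallen genes was 5.17 in H49_DS and 5.15 in WT_DS. Among the risen genes 590 (95.8%) ended within 1.5-fold in the 2 genotypes, and among the fallen genes 918 (96.1%) did, which is near the 96.3% of all genes. The 95% interval lay within 2-fold for 508 risen genes (82.5%) and for 742 fallen genes (77.7%), against 86.2% of all genes.

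Genes called in only 1 genotype differed more, on the side that this choice sets. Of 181 genes called as risen only in H49, 171 were higher in H49_DS with a median difference of 0.31, and of 131 called as risen only in WT, 109 were lower in H49_DS with a median of -0.20. In the first of these sets 149 genes (82.3%) ended within 1.5-fold in the 2 genotypes and 6 differed 2-fold or more, and in the second 112 (85.5%) and 3 did. *OsPHT3*, from the second set, stood at 4.70, 4.63 and 4.52 in H49_DS and 5.62, 5.28 and 6.20 in WT_DS, a difference of -1.08 without overlap (adjusted p = 0.97 from limma). *ASMT*, from the first, stood at 5.34, 5.38 and 4.69 in H49_DS and 2.74, 5.32 and 4.02 in WT_DS, with WT_DS replicate 1 the lowest of the 6 arrays. Both were named after their values had been seen. Of 453 genes called as fallen only in H49, 379 were lower in H49_DS (median -0.21), and of 328 called as fallen only in WT, 305 were higher (median 0.31).

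The median difference of H49_DS minus WT_DS was 0.10 for the 616 genes that rose and 0.01 for the 955 that fell, where the median over all genes was 0.03. Of the risen genes 409 were higher and 207 lower in H49_DS. That excess rested on WT_DS replicate 1: without this array the median was -0.06 and 246 genes were higher in H49_DS, and with quantile normalization it was 0.02 with 338 higher. Array by array, the median level of the risen genes above the mean of the 6 controls was 1.69, 1.70 and 1.70 in H49_DS and 1.34, 1.73 and 1.75 in WT_DS. All 3 H49_DS arrays were thus nearly equal, and 2 WT_DS arrays lay just above them while replicate 1 lay below. WT_DS replicate 1 was the lowest of the 6 arrays in 354 of the 616 risen genes (57.5%), and it was the lowest in 29.6% of all genes. After quantile normalization its median was 1.65, still the lowest of the 6 but closer to the range of 1.73 to 1.80 of the other arrays. For the fallen genes the medians were -1.52, -1.48 and -1.37 in H49_DS and -1.53, -1.53 and -1.32 in WT_DS, and replicate 3 had fallen least in both genotypes.

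**Figure D2:**
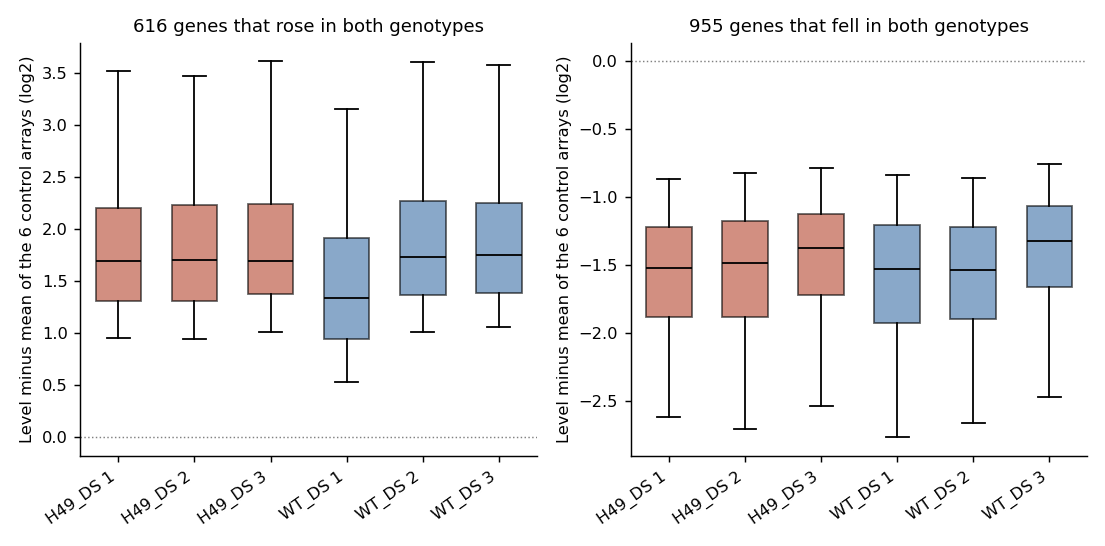
Boxes show, for each DS array, the level minus the mean of the 6 control arrays (log2) of the 616 genes that rose (left) and the 955 that fell (right) in both genotypes; the line is the median, the box the middle 50% of genes and the whiskers the 5th and 95th percentiles. The medians of the risen genes lie between 1.69 and 1.75 except in WT_DS replicate 1, at 1.34.

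Among ABA signalling genes that rose most, the levels of the PP2C genes lay close together. *OsPP2C59*, a protein phosphatase 2C gene and the named gene with the largest rise after *OsHOX24*, had levels of 10.38, 10.40 and 10.57 in H49_DS and 10.19, 10.31 and 10.50 in WT_DS. *OsPP2C30* followed with 8.03, 7.99 and 8.37 in H49_DS and 7.72, 8.08 and 8.20 in WT_DS, and *PP2C68* with 7.94, 7.83 and 8.22 in H49_DS and 7.53, 7.85 and 7.89 in WT_DS. In each of these PP2C genes replicate 1 was the lowest WT_DS array and the groups overlapped. *OsBZIP23*, which encodes a bZIP factor of the ABA response, stood at 8.90, 8.74 and 9.08 in H49_DS and 8.61, 9.05 and 9.03 in WT_DS, a difference of 0.01 (standard error 0.20, adjusted p = 0.996 from limma). *OsSAPK1*, a SnRK2 kinase gene, had 7.99, 7.97 and 7.97 in H49_DS against 7.08, 8.04 and 7.89 in WT_DS, a difference of 0.31 in which the other WT_DS arrays lay on either side of the H49_DS arrays.

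The LEA and dehydrin genes varied more among replicates than the phosphatase genes. *OsLEA3-1* reached 8.15, 8.43 and 7.68 in H49_DS and 7.48, 7.90 and 7.69 in WT_DS, a difference of 0.40 (standard error 0.29, adjusted p = 0.97 from limma). *RAB16C*, a dehydrin gene, reached 7.35, 7.58 and 8.48 in H49_DS and 7.10, 7.05 and 7.96 in WT_DS, with replicate 3 the highest in both genotypes. *EM*, a LEA gene known from maturing seeds, varied widely, at 5.08, 6.75 and 7.58 in H49_DS and 6.93, 4.86 and 6.60 in WT_DS. The list of 5 genes also held *LEA1* and *salT*, the latter matched by its name and neither a LEA nor a dehydrin gene. All 5 rose in each genotype, 4 were higher in H49_DS, 0 were without overlap and the median difference was 0.40. The largest difference in the list, 0.53, was that of *salT*. For 0 of the 5 did the 95% interval lie within 2-fold, so these arrays cannot tell a 2-fold difference from none. The 1 member that was lower in H49_DS was *LEA1*. Without single arrays the median of this list ran from 0.10 to 0.57.

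Single genes of sugar use and chlorophyll breakdown that rose in both genotypes overlapped between them, with intervals that were often wider than 2-fold (*OsSWEET15*, -0.42 to 1.37; *ICL*, -0.20 to 1.12). *OsSWEET15*, a sucrose transporter gene, had 9.22, 10.24 and 9.19 in H49_DS and 8.74, 9.11 and 9.36 in WT_DS, with 1 high H49_DS array. *ICL*, the isocitrate lyase gene of the glyoxylate cycle, had 8.39, 8.18 and 7.79 in H49_DS and 7.001, 8.08 and 7.90 in WT_DS. *SGR*, a gene of chlorophyll breakdown, had 9.36, 8.76 and 9.17 in H49_DS and 8.14, 8.97 and 9.28 in WT_DS. In *ICL* and *SGR* alike, replicate 1 of WT_DS was the lowest of the 6 arrays and the other WT_DS arrays lay within the range of H49_DS. *NYC1*, which encodes a chlorophyll b reductase, repeated this order at 11.63, 11.08 and 11.34 in H49_DS against 10.71, 11.30 and 11.42 in WT_DS.

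**Figure D3:**
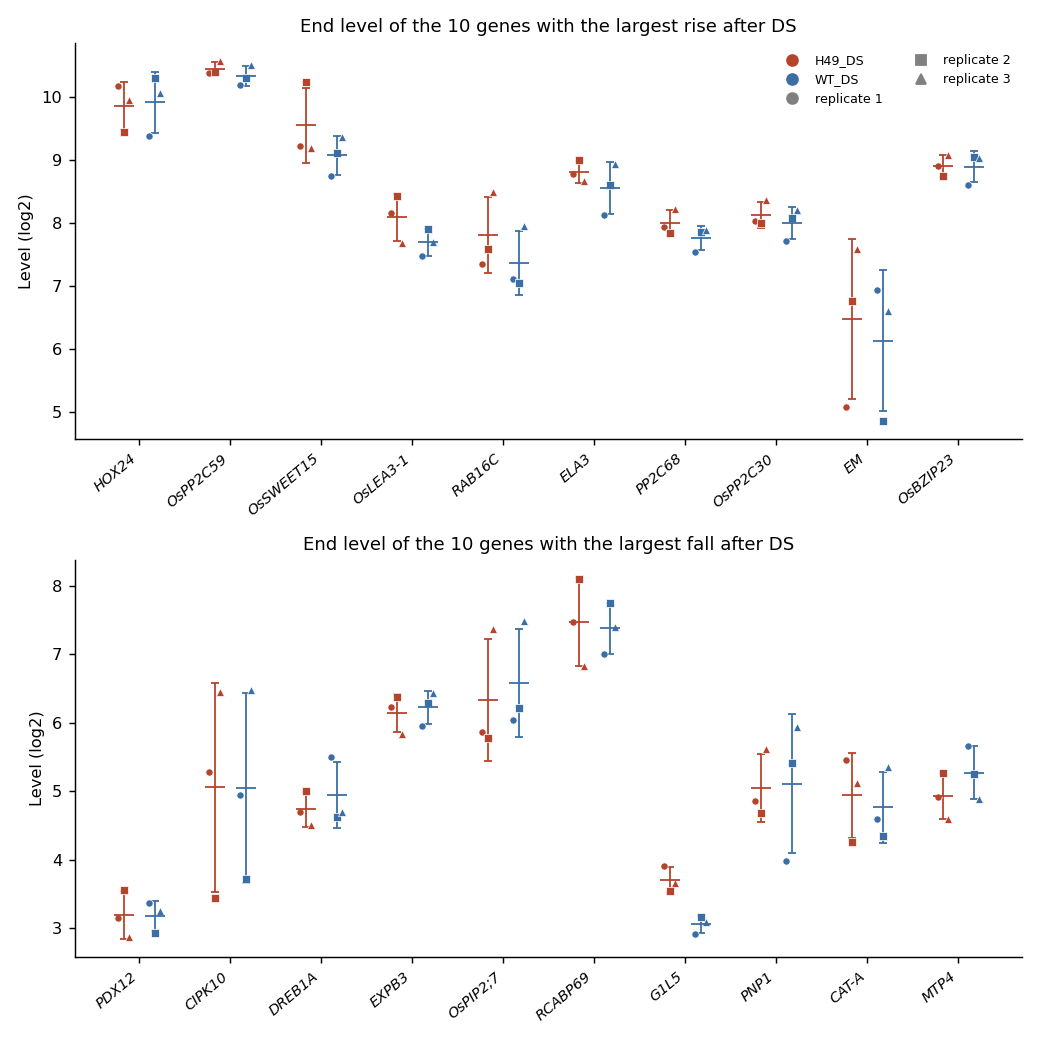
End level (log2) of the 10 named genes with the largest rise (top) and the 10 with the largest fall (bottom) after DS, with H49_DS in red left of WT_DS in blue; circles, squares and triangles are replicates 1, 2 and 3, the dash is the mean and the bar the SD of 3 arrays. In 19 of these 20 genes the arrays of the 2 genotypes overlap, and in *G1L5* all H49_DS arrays lie above all WT_DS arrays.

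Of the 10 genes with recognised names that fell most, 1 was without overlap between the genotypes. *DREB1A*, an AP2/ERF gene known from the cold response, ended at 4.70, 5.002 and 4.50 in H49_DS and 5.50, 4.63 and 4.70 in WT_DS. The expansin gene *EXPB3* ended at 6.24, 6.37 and 5.84 in H49_DS and 5.96, 6.30 and 6.43 in WT_DS, and the catalase gene *CAT-A* at 5.46, 4.25 and 5.12 in H49_DS and 4.59, 4.35 and 5.35 in WT_DS. In these 3 genes the difference was below the spread of the arrays. The exception was *G1L5*, a gene of the ALOG family of developmental regulators, at 3.90, 3.54 and 3.65 in H49_DS against 2.92, 3.15 and 3.08 in WT_DS, a difference of 0.65 (standard error 0.19, adjusted p = 0.97 from limma). The aquaporin gene *OsPIP2;7* ended at 5.87, 5.77 and 7.37 in H49_DS and 6.04, 6.21 and 7.49 in WT_DS, with replicate 3 the highest by more than 1 log2 unit in both genotypes.

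Of the genes that rose or fell in both genotypes, 4 differed 2-fold or more in end level, all of them unnamed genes that rose. LOC9270608 stood at 6.06, 7.37 and 7.78 in H49_DS and 5.68, 5.81 and 5.55 in WT_DS, a difference of 1.39 with a standard error of 0.35. LOC4325684 stood at 7.29, 6.996 and 7.15 in H49_DS and 8.52, 7.72 and 8.23 in WT_DS, a difference of -1.01. Both genes were without overlap, and neither passed the test. LOC4334663 also did not overlap, with 8.26, 8.77 and 8.18 in H49_DS and 7.02, 7.83 and 7.32 in WT_DS. LOC4336982 rested on WT_DS replicate 1, at 7.99, 7.02 and 6.44 in H49_DS and 4.43, 7.03 and 6.12 in WT_DS.

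All 3 H49_DS arrays lay above all 3 WT_DS arrays in 695 genes (4.59%) and below them in 590 (3.9%). Among the 616 risen genes 23 were higher and 16 lower in this way (6.33%), and among the 955 fallen genes 24 and 27 (5.34%), both shares under the 8.49% of all genes. Described next are recognised genes with the largest such differences, and those with the smallest unadjusted p. For the former, the highest of the 4 group means, controls included, had to be at least 6, so some lay lower after DS. Of all these genes 0 passed the test. *JAZ8*, which encodes a repressor of the jasmonate response, had 6.66, 7.15 and 7.43 in H49_DS and 6.35, 6.28 and 6.31 in WT_DS, a difference of 0.77 (standard error 0.23, adjusted p = 0.97 from limma). The related gene *JAZ11* had 7.57, 7.88 and 7.89 in H49_DS and 7.30, 6.99 and 7.52 in WT_DS. Both JAZ genes were thus higher in every H49_DS array, and the 3 WT_DS arrays of *JAZ8* were nearly equal while its H49_DS arrays were spread.

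*HOX7*, another HD-Zip gene, had 6.75, 6.92 and 6.62 in H49_DS and 5.34, 6.35 and 6.33 in WT_DS, a difference of 0.76 (standard error 0.31, adjusted p = 0.97 from limma). It rose in both genotypes and was lowest in WT_DS replicate 1, without which the difference was 0.42. *NRAMP2*, a metal transporter gene, had 7.20, 7.39 and 7.21 in H49_DS against 6.60, 6.56 and 6.65 in WT_DS, with little spread in either group (unadjusted p = 0.000683, adjusted p = 0.97 from limma). *MYBS1*, which encodes a MYB factor known to bind a sugar-response element of α-amylase promoters, had 5.52, 5.55 and 5.63 in H49_DS against 4.36, 4.63 and 4.79 in WT_DS, a difference of 0.97 (standard error 0.22, unadjusted p = 0.00062, adjusted p = 0.97 from limma). Its gap between the groups was wider than the spread within either. *HDA703*, a histone deacetylase gene, showed the same order at lower levels, 3.80, 4.24 and 4.14 in H49_DS against 2.73, 3.35 and 3.47 in WT_DS. Others with higher values in every H49_DS array were *DJC16* (difference 0.82), *ARD1* of the methionine salvage cycle (0.73), the β-glucosidase gene *BGLU26* (0.59), the autophagy gene *APG8C* (0.57) and *CSB* (0.53). Without WT_DS replicate 1 the difference of *BGLU26* was 0.28. *OsTBT1* (0.89), and the B-type cyclin gene *CYCB1-5* (0.63), belonged to the genes with the smallest unadjusted p, as did *ADF-1*, an actin depolymerizing factor gene that was lower in every H49_DS array (-0.69), and *ARF16*, an auxin response factor gene whose groups overlapped (0.87).

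Among recognised genes lower in every H49_DS array, with a mean of at least 6 in any group, *BZIP52*, a bZIP factor gene, had the largest difference. It stood at 6.59, 6.74 and 6.36 in H49_DS and 7.48, 7.47 and 6.97 in WT_DS, a difference of -0.74 (standard error 0.25, adjusted p = 0.97 from limma). Next under the same filter stood a pair of translation genes. The lysyl-tRNA synthetase gene *LysRS* had 5.34, 5.05 and 5.86 in H49_DS and 6.12, 5.88 and 6.16 in WT_DS. The ribosomal protein gene *RPL39C* had 6.67, 6.51 and 6.73 in H49_DS and 7.52, 6.92 and 7.36 in WT_DS. In *LysRS* H49_DS replicate 3 lay close under the lowest WT_DS array. The trehalose-6-phosphate phosphatase genes *OsTPP1* (difference -0.58) and *OsTPP9* (-0.49), and *DAHPS2* of the shikimate pathway (-0.41), were also lower in every H49_DS array. In *OsTPP1* the edge of the groups was nearly shared, at 6.04 in the highest H49_DS array and 6.04 in the lowest WT_DS array. Smaller differences without overlap were found for *GRXC1* (-0.34), *Os-RSZ23* (-0.30), *OsVDAC3* (-0.29) and *APRL2* (-0.25).

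Gene lists chosen by name gave small medians beside the 0.03 of all genes, of which 55.5% were higher in H49_DS. Of 30 jasmonate, WRKY and pathogenesis-related genes, 25 were higher in H49_DS, with a median of 0.12. The 4 genes of this list that were higher in every H49_DS array were *JAZ8*, *JAZ11*, *Cht11* and *OsWRKY62*, and 0 were lower in every array, where 4.59% of all genes were higher and 3.9% lower. Of 58 DNA replication and cell division genes, 43 were lower in H49_DS with a median of -0.14, which was -0.05 without WT_DS replicate 1 and -0.01 without replicate 1 of both DS groups, and 2 were higher and 3 lower in every array (8.62%, near the 8.49% of all genes). Translation genes, 17 in all, had a median of -0.15 with 12 lower, which was -0.07 without H49_DS replicate 2 and -0.09 without H49_DS replicate 1, and the jasmonate median was 0.25 without WT_DS replicate 3. Each of these 3 lists kept the sign of its median under both other scalings and without any single array. That was not particular to them, since the homeobox, LEA and dehydrin, calcium, cell wall and root marker lists did so too. No member of any list passed the test (0 of 15140 genes did).

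The ABA and phosphatase lists changed sign with 1 array. Of 20 genes of ABA synthesis, perception and response, 14 were higher in H49_DS with a median of 0.09, which was -0.05 with 9 higher without WT_DS replicate 1. For 32 PP2C genes the median was 0.08 with 23 higher, and without that array it was -0.02 with 15 higher. The interval of 31 of the 32 PP2C genes (96.9%) lay within 2-fold. Of 18 HD-Zip and other homeobox genes 13 were higher in H49_DS (median 0.09), among them *HOX7* and *HOX4* (0.77). Medians of 0.02 for 47 sugar genes, -0.04 for 20 heat stress genes, 0.07 for 47 redox genes (-0.02 without WT_DS replicate 1) and 0.01 for 13 NAC and MYB genes lay near that of all genes. *NAC077*, which the paper names, ended at 4.76, 4.44 and 5.06 in H49_DS and 4.06, 5.75 and 5.67 in WT_DS, a difference of -0.41 (standard error 0.41, adjusted p = 0.97 from limma), and its lowest and highest arrays were both WT_DS. Root markers, 21 genes, were lower in H49_DS in 15 (median -0.12, summed linear level 506 to 544 in H49_DS and 543 to 619 in WT_DS), and the part of these markers in the values above was not tested.

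Replicates varied more in WT_DS than in H49_DS. The median SD over genes was 0.23 in H49_DS and 0.28 in WT_DS, beside 0.22 in H49_CT and 0.24 in WT_CT. An SD of at least 0.5 was found for 1484 genes (9.8%) in H49_DS and for 2295 (15.2%) in WT_DS, and 8904 genes (58.8%) had the larger SD in WT_DS. The excess was tied to WT_DS replicate 1, since without it the median SD of WT_DS was 0.19, and without single H49_DS arrays that of H49_DS was 0.18 to 0.19. Of the 2295 variable genes of WT_DS, replicate 1 was the farthest array in 51.0%, high in 426 and low in 745. Variable genes of H49_DS had no such dominant array, with 40.6%, 30.5% and 29.0% for replicates 1, 2 and 3. The genes that rose in both genotypes were more variable in WT_DS (median SD 0.24 in H49_DS and 0.33 in WT_DS), and genes with no call after DS were too (0.22 in H49_DS and 0.27 in WT_DS).

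Arrays of different genotypes were as alike as arrays of 1 genotype. Between genotypes, the 9 pairs of DS arrays had 333 to 1046 genes at least 2-fold apart and correlated at r = 0.950 to 0.975 across genes. Within genotypes, the 6 pairs had 534 to 1066 such genes and r = 0.949 to 0.969. The most alike of all 15 pairs was H49_DS replicate 3 with WT_DS replicate 3, with 333 genes. The 5 pairs that held WT_DS replicate 1 had 955 or more.

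**Figure D4:**
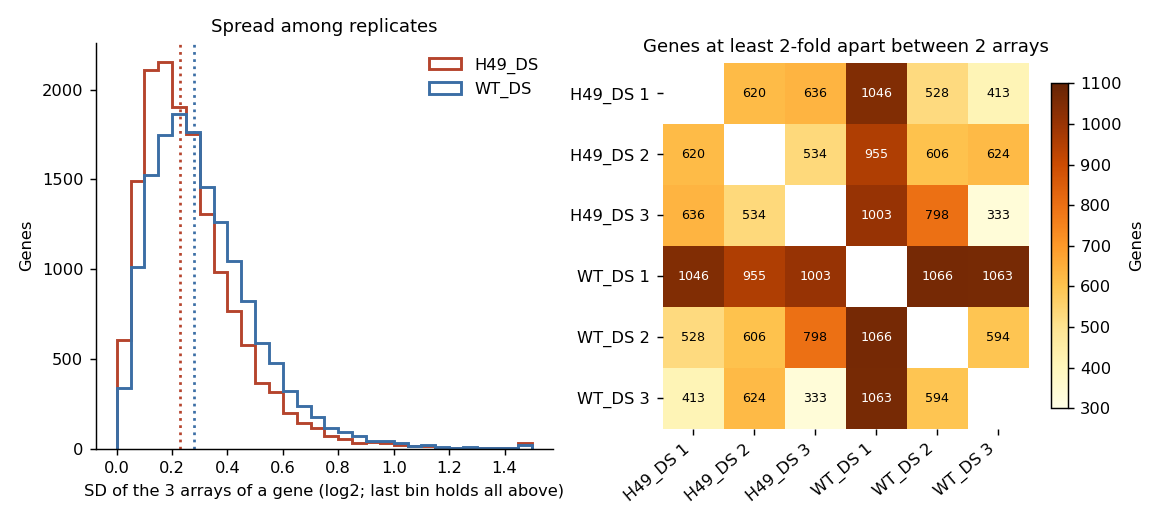
Left, the number of genes by the SD of their 3 arrays (log2) in H49_DS and WT_DS, with dotted lines at the medians of 0.23 and 0.28; right, the number of genes at least 2-fold apart for each pair of DS arrays. The row of WT_DS replicate 1 holds 955 to 1066 genes, and all other pairs hold 333 to 798.

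*ARD' 4*, a second gene of methionine salvage, showed how 1 array widens WT_DS, with 9.92, 9.81 and 9.10 in H49_DS and 7.14, 9.86 and 9.54 in WT_DS. Some clock genes, examined after values had been seen, varied by replicate number in the same way in both genotypes. *CCA1*, which encodes a morning factor of the circadian clock, had 8.17, 10.13 and 6.48 in H49_DS and 8.40, 10.62 and 6.20 in WT_DS, and the controls had the same order. *OsPCL1*, an evening gene of the clock, ran the opposite way at 4.57, 3.05 and 7.09 in H49_DS and 4.56, 2.72 and 6.31 in WT_DS. *GI* (GIGANTEA) had 10.69, 9.90 and 11.22 in H49_DS and 10.26, 9.41 and 11.18 in WT_DS. In all 3, replicate 2 and replicate 3 of both genotypes lay at opposite ends. The other 3 clock genes looked at did not do so in both genotypes: *OsPRR73* had 9.74, 9.98 and 9.76 in H49_DS and 9.42, 10.0 and 9.70 in WT_DS, *OsPRR95* had 9.71, 8.38 and 9.39 in H49_DS and 9.58, 9.06 and 9.50 in WT_DS, and *DTH7* had 7.97, 7.82 and 7.36 in H49_DS and 7.63, 8.02 and 7.84 in WT_DS. The order of *OsPCL1* was also that of the calcium signalling kinase gene *CIPK10*, with 5.28, 3.43 and 6.46 in H49_DS and 4.95, 3.72 and 6.48 in WT_DS. *BBD1*, with 4.57, 3.43 and 7.37 in H49_DS and 4.46, 3.69 and 7.75 in WT_DS, followed it too. The differences between genotypes in *CCA1*, *OsPCL1*, *GI*, *CIPK10* and *BBD1* were at most 0.37, while their SDs reached 2.21. Of the 37 genes with an SD of at least 1 in both groups, 12 (32.4%) had the same order of replicates, against 18.9% of all genes. The same replicate was highest in 14 of the 37 (37.8%), against 37.8% of all genes. The hour at which each replicate was sampled is not given in the sources used here.

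A second set of variable genes ran against the genotype labels in replicate 1. LOC4349468 had 4.68, 7.35 and 7.60 in H49_DS and 5.46, 3.84 and 3.26 in WT_DS, and LOC4335309 had 4.24, 6.73 and 7.03 in H49_DS and 6.82, 3.98 and 3.18 in WT_DS. In both genes replicates 2 and 3 were high in H49_DS and low in WT_DS, and replicate 1 had the reverse order. In LOC4349468 both replicate 1 arrays lay between those levels, so that the reversal was partial. The control arrays of LOC4335309 followed suit, with 5.39, 7.40 and 7.69 in H49_CT and 7.56, 5.40 and 4.59 in WT_CT. *BADH2*, the betaine aldehyde dehydrogenase gene that underlies the fragrance of Basmati rice, had 5.76, 7.63 and 7.50 in H49_DS and 7.79, 5.69 and 5.78 in WT_DS. Over the 51 genes with a 2-fold difference of means, all 39 higher in H49_DS were higher in the replicate 3 pair and 36 in the replicate 2 pair, against 24 in the replicate 1 pair. All 12 genes lower in H49_DS were lower in the replicate 2 and replicate 3 pairs, against 9 in the replicate 1 pair. The 51 genes were chosen by the means of these same arrays, which favours pairs with the sign of the mean. The pairs follow the numbers in the labels only, and the counts are a description.

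With replicate 1 left out of all 4 groups, an alternative chosen after the data had been seen, 7 genes were called, all higher in H49_DS, by 2.28 to 3.92 on the log2 scale (smallest adjusted p = 0.00993 from limma). They were LOC4349468, LOC9270731, LOC4352450, LOC4335309, LOC9269998, LOC4334991 and LOC4344624, and in all 7 the array labelled replicate 1 was lower in H49 than in WT, both after DS and in the controls. These genes were found by leaving replicate 1 out and were not called with it. The choice itself thus favours a reversed replicate 1, and the count is a description. Without replicate 2 or replicate 3 in all groups 0 genes were called. Leaving out replicate 1 of only the DS groups gave 0 calls and 790 genes at an unadjusted p under 0.05. The cause of this pattern was not tested, and every comparison of H49_DS with WT_DS given here includes these arrays unless stated.

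**Figure D5:**
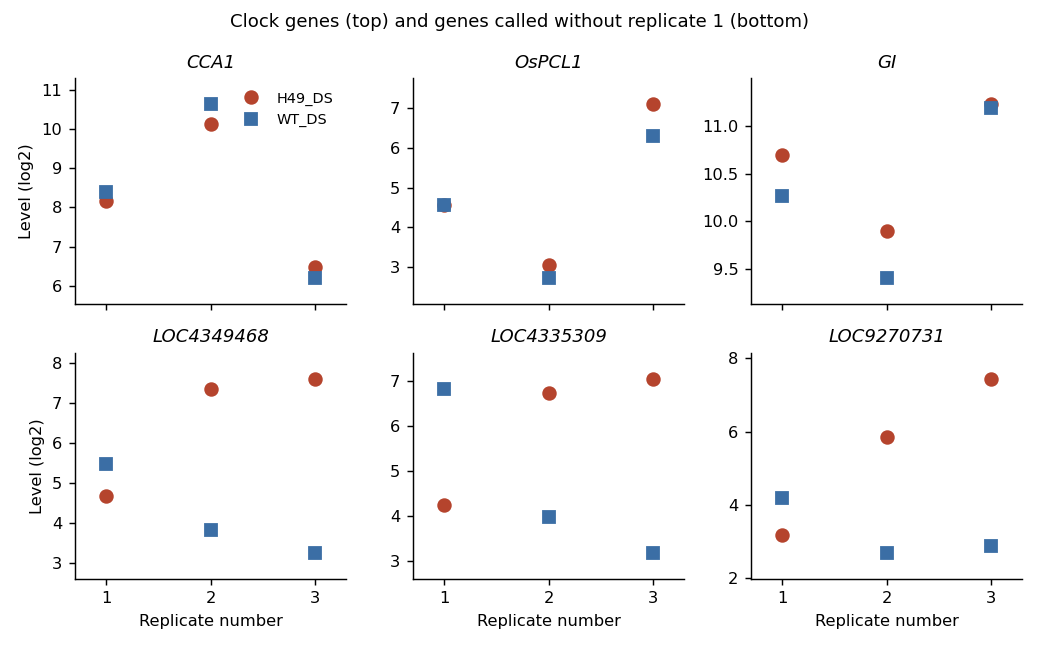
Levels (log2) by replicate number in H49_DS (red circles) and WT_DS (blue squares) for 3 clock genes (top) and 3 of the 7 genes called without replicate 1 (bottom). *CCA1*, *OsPCL1* and *GI* move together in both genotypes, whereas the lower genes are high in H49_DS replicates 2 and 3 and turn round in replicate 1.

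The control arrays entered the fit through the shared spread, but not the DS differences of means or the overlap of DS arrays. Between H49_CT and WT_CT 7.46% of genes did not overlap. They are not a wholly separate view of the genotype. Same-numbered DS and control arrays of a genotype shared deviations from their group means, at r = 0.085 to 0.301. Of the 695 genes higher in every H49_DS array, 45 (6.47%) were also higher in every H49_CT array than in every WT_CT array and 15 were lower, where 4.34% of all genes were higher in H49_CT. Of the 590 genes lower in every H49_DS array, 34 (5.76%) were also lower in every H49_CT array and 19 higher, where 3.12% of all genes were lower. Across the 15140 genes the DS and control differences correlated at r = 0.17 (Spearman's rho 0.14), as a description over genes, which are not independent replicates, and genes that divide the arrays in both treatments, such as LOC4335309, enter this value. LOC4346270 was higher in H49 in both treatments, with 4.93, 5.03 and 4.61 in H49_DS and 3.76, 4.12 and 3.29 in WT_DS, a difference of 1.14, and 0.76 between the controls. For *JAZ8*, *HOX7*, *MYBS1* and *BZIP52* the control differences were 0.09, -0.25, -0.17 and 0.06, each smaller in size than after DS.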

How the data were processed

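Expression was measured in seedlings on Affymetrix rice GeneChip arrays, 12 in all. The deposited values are log2 signals that the authors made from the scanner files with robust multi-array averaging (RMA) in GeneSpring, which corrects the background, makes the arrays' distributions alike and summarises the probes of each set, so absolute RNA amounts are not kept. The labels name a 3' IVT PLUS labelling kit and the methods a WT PLUS kit. Precision is limited by the small number of arrays.

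Of 54922 probe sets, 15829 were paired with 1 gene by the platform annotation, 440 with several and 38653 are unnamed here. Each of the 15140 genes was read from its probe set with the highest mean. A model with 1 mean for each of the 4 groups was fitted to the 12 arrays with limma 3.58.1 (lmFit and eBayes) in R 4.3.3, and p-values were adjusted by Benjamini-Hochberg over all genes. Standard errors and intervals are from this fit. Other values were computed with pandas 2.3.3, scipy 1.17.1 and numpy 2.4.6 under Python 3.11.15, with figures drawn in matplotlib 3.10.9, and the fit was tested on simulated data. No scan date or slide was used.

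Named genes were those the paper names; the 10 highest and 10 lowest differences without overlap among recognised names (1740 genes) with a group mean of at least 6; the 10 smallest unadjusted p; the 10 largest rises and falls called in both genotypes; the 5 largest SDs in each group; and leading members of each list. The group mean of at least 6 could be that of any of the 4 groups, controls included. LOC names, *BADH2*, the clock genes and genes low in WT_DS replicate 1 were chosen after their values were seen. The members and lists were chosen with earlier results of these data known. Alternatives were other scalings, array weights, filters, probe set rules, fits, a replicate block and leaving out arrays.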

Additional observations from a re-analysis of the deposited data

Results flagged for a closer look

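In *NRAMP2* and *MYBS1* the arrays moved in opposite directions after DS in the 2 genotypes, every H49_DS array lying above every H49_CT array and every WT_DS array below every WT_CT array. In H49 the edge was narrow. The lowest H49_DS and highest H49_CT arrays stood at 7.201 and 7.192 in *NRAMP2* and at 5.517 and 5.449 in *MYBS1*. The response of *NRAMP2* to DS was 0.169 in H49 and -0.47 in WT on the log2 scale. For *MYBS1* it was 0.588 in H49 and -0.563 in WT. The difference of these responses was not tested, and both genes were among the named genes for their small p between H49_DS and WT_DS.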

How the results depend on the processing

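The count of 0 called genes held under the other scalings, array weights, filters, probe set rules and single arrays left out. It was 11 with the methods' t-test unadjusted (0 after Benjamini-Hochberg) and 7 without replicate 1 in all 4 groups, the last chosen after the data had been seen. Of the genes with a 2-fold difference between H49_DS and WT_DS, 19 passed a moderated F test over the 4 groups. That test also responds to DS itself, so these 19 are not calls between the genotypes. Genes at an unadjusted p under 0.05 numbered 733, against 356 of 8129 genes with a mean of at least 5, 2786 over all 54922 probe sets, and 560 to 1302 with 1 array left out, the highest without WT_DS replicate 3, and 510 to 1051 without the same-numbered arrays of both DS groups or of all groups (546 without replicate 2 of the DS groups). The split of these genes was 390 higher and 343 lower in H49_DS, 335 and 402 with arrays centred on their medians, and 387 and 421 with quantile normalization. The median SD was 0.178 to 0.192 in H49_DS and 0.19 to 0.252 in WT_DS with 1 array left out. *OsHOX24* ran from -0.32 to 0.15 without single arrays. The median difference of genes that rose ran from -0.06 to 0.18 and that of genes that fell from -0.04 to 0.08. With the replicate number as a block, 0 genes were called and 875 had an unadjusted p under 0.05, and the difference of *OsHOX24* was -0.06. Pairing was taken as given only if every same-numbered pair had r above 0.1, and 13 of 18 did (r from -0.195 to 0.395), the other 5 all being pairs of replicate 1. For 10 of 12 arrays the best match was an array of their own number, a hint from the data and not from the design. The cause of these changes was not tested. Of 106 named genes 56 kept their sign under all alternatives run.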

Other observations

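Further gene groups showed small differences after DS, and 0 of their members passed the test in limma (at an unadjusted p under 0.05 there were 733 of 15140 genes). Of 15 photosynthesis and chlorophyll genes, which include the breakdown genes *SGR* and *NYC1*, 11 were higher in H49_DS. The median of this list was 0.09, against -0.02 without WT_DS replicate 1 and -0.09 without H49_DS replicate 2. All 5 green-tissue markers were higher with a median of 0.09, against -0.08 without either of these arrays. Of 14 aquaporin genes, which encode water channels, 9 were higher in H49_DS with a median of 0.12, and 6 with a median of -0.03 without H49_DS replicate 2. Medians were 0.07 for 42 auxin genes (-0.01 without WT_DS replicate 1), 0.05 for 51 calcium sensor and kinase genes, 0.09 for 8 AP2/ERF genes (-0.03 without WT_DS replicate 2), -0.04 for 103 cell wall genes and -0.09 for 7 seed storage genes (0.10 without WT_DS replicate 2).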
